A study of Homo sapiens with 6 samples.

Results

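A set of 9 genes whose products are drug targets or drug-response markers in small cell lung cancer was followed across the 6 libraries of the series, and all 9 symbols were found among the 17081 genes of the count table. The genes were chosen by name, for their role in therapy, with earlier results of these data known. ATR, CHEK1, WEE1, PARP1 and SLFN11 act when DNA replication is stalled or broken, AURKA and AURKB are the Aurora mitotic kinases, and CD276 and SEZ6 are cell surface antigens at which antibody drugs have been aimed.

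The samples were tumour tissue grown from DMS114 cells, a human line of small cell lung cancer, in a sciatic nerve invasion model. Tumour from the distal invaded region (3 libraries) was compared with tumour from the proximal invaded region (3 libraries), and no treatment or genetic change is labelled in either group. A single cell line carries both groups, so differences between patients or lines are outside the comparison. The labels name neither the host nor a time. Whether the 3 libraries of a group stem from different animals is not labelled either. Each p-value, SE and interval therefore reflects library-to-library spread that could be technical.

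ATR is the kinase that senses single-stranded DNA at stalled replication forks. It activates CHK1 (encoded by CHEK1), which restrains CDC25 phosphatases, while WEE1 places the inhibitory phosphate on CDK1 and CDK2. Inhibitors of these kinases force cells with damaged DNA onward into mitosis. PARP1 detects DNA strand breaks and is trapped on DNA by PARP inhibitors. SLFN11, a Schlafen family protein, irreversibly blocks stressed replication forks, and its expression is widely studied as a marker of sensitivity to PARP inhibitors and platinum, with silencing by promoter methylation or EZH2 described in small cell lung cancer. AURKA drives spindle assembly and AURKB is the kinase of the chromosomal passenger complex. CD276 (B7-H3) is a B7 family immune ligand, and SEZ6 is a neuronal membrane protein found on neuroendocrine tumours.

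SLFN11 was the member that varied most among the 8 with enough reads to be tested, and the start of its gene is shown for that reason. The RefSeq window (GRCh38.p14, chr17:35373572-35373871, minus strand, 250 bases before to 50 after the annotated start) is given with every CG dinucleotide, the substrate of promoter methylation, in capitals. It holds 18 CG dinucleotides, where the median of all such windows is 14 and 55.5% of windows hold fewer. Methylation was not measured in these libraries.
SLFN11: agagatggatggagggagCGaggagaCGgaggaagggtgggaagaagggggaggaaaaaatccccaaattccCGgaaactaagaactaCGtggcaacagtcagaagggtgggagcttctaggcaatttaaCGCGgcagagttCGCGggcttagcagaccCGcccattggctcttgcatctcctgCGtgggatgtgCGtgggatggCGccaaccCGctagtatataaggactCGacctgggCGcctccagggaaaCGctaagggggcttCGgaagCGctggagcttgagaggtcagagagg

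CHEK1 is shown beside it because its level followed that of AURKA most closely among the member pairs, as described below. In 1 of its 3 overlapping windows, the first listed (GRCh38.p14, chr11:125625979-125626278, plus strand) the letters CCAAT, or ATTGG on the other strand, are in capitals. CCAAT is the core of the element bound by NF-Y and is common in cell cycle promoters.
CHEK1: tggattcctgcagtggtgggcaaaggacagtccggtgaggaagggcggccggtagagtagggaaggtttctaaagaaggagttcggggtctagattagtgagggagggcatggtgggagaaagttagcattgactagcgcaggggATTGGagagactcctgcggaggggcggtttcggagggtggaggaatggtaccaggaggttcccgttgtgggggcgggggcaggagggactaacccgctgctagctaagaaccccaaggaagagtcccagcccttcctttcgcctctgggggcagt

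The RefSeq table held 10 windows for 6 of the 9 members: SLFN11, PARP1, ATR, CHEK1, AURKB and CD276. Each set of letters was searched on both strands, so a window counts where either strand holds it. The letters CCAAT were found in 7 of the 10 windows and in 34.6% of all 35116 windows. TTTGAA, known as the cell cycle homology region, were found in 0 of the 10 and in 15.2% of all windows. GGCGGG, on one strand or the other, occurred in 10 of the 10 and in 45.0% of all windows, and the E2F-type letters TTTGGCGC or TTTCGCGC in 0 of the 10 and in 1.15%. Several windows of 1 gene overlap, so these counts describe letters and are not independent.

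Total counts ran from 16171106 to 24217043 in the distal and from 21865148 to 26116191 in the proximal libraries. Distal 3 stood apart from the rest. A chi-square statistic per degree of freedom over the tested genes was 41.9 to 48.8 between distal 3 and every other library and 5.78 to 26.6 between the remaining pairs, so no pair agreed within sampling noise. Distal 3 was the shallowest library and held the most skeletal muscle transcripts: the 14 muscle markers summed to 4.23, 22.3 and 2132 CPM (counts scaled to library size) in distal 1 to 3 and to 7.66, 34.4 and 296 CPM in proximal 1 to 3. Because of this, each member is given with and without distal 3. Of the lung cancer regulators, YAP1 had 167 to 187 CPM, while NEUROD1 was highest in distal 3 at 6.47 CPM and at most 0.618 CPM elsewhere. The neuroendocrine marker SYP had 56.9 to 63.9 CPM, CHGA 6.35 to 7.57 CPM and INSM1 0.837 to 1.47 CPM.

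No drug target gene differed past the test's threshold between distal and proximal tumour, and SEZ6 had too few reads to be tested. Of the 8 members with enough reads to be tested, 5 had higher and 3 lower values in distal tumour, with a median log2 fold change of 0.033, against 51.6% higher and a median of 0.0045 over all 13382 tested genes. With edgeR's quasi-likelihood F-test, adjusted over all tested genes by Benjamini-Hochberg at 0.05, 0 members were called, where 0% of all genes were called. DESeq2 called 1 gene of the table, EDIL3, and limma-voom 0, and neither called a member. At an unadjusted p under 0.05 there was 1 member, WEE1, and 178 genes in all (1.33%). WEE1 was also the 1 tested member whose distal and proximal values did not overlap, which held for 841 of the tested genes (6.28%). In bulk tissue, fewer cells of a type and less RNA per cell cannot be told apart. Below, a value followed by an SE is a log2 fold change, distal minus proximal, unless another scale is named.

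**Figure D1:**
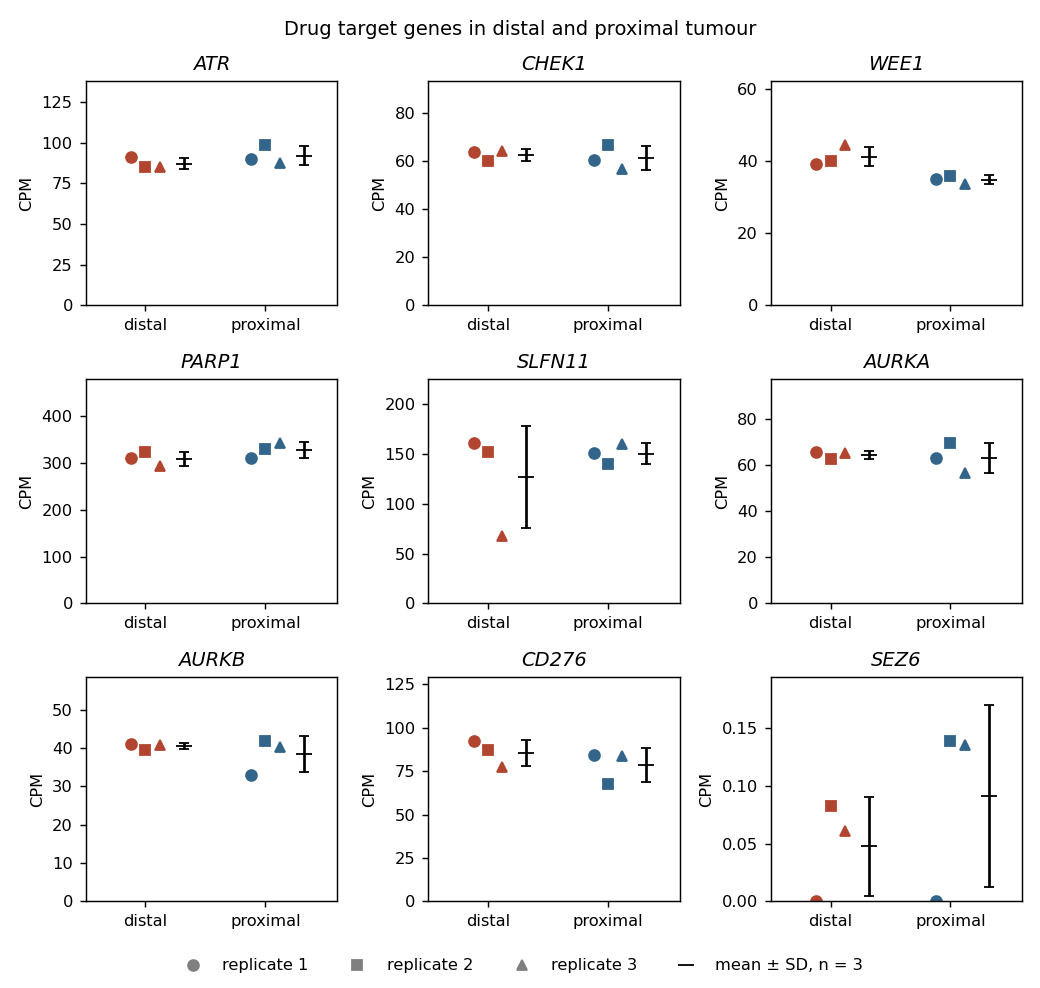
CPM of each member in the 3 distal (left, red) and 3 proximal (right, blue) libraries, on linear axes that start at 0, with marker shapes for the replicate number and black marks for the mean ± SD (n = 3). The groups overlap for every member but WEE1, and distal 3 lies apart for SLFN11, at 68.0 CPM.

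ATR (chromosome 3, 142449235 to 142578733, GRCh38) was read at a nearly constant level. It had 91.0, 85.4 and 85.3 CPM in distal 1 to 3 and 89.8, 98.5 and 87.4 CPM in proximal 1 to 3. The highest value was that of proximal 2, and the groups overlapped. The log2 fold change of ATR was -0.075 (SE 0.085, 95% interval -0.27 to 0.11), and -0.060 without distal 3. With each library left out in turn it ran from -0.11 to -0.024, the value nearest 0 being without proximal 2.

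CHEK1 (chromosome 11, 125625136 to 125681124) had 63.7, 59.99 and 64.3 CPM in distal 1 to 3 and 60.5, 66.7 and 56.6 CPM in proximal 1 to 3. Proximal tumour held both its highest and its lowest library, so the distal values lay inside the proximal range. The difference was 0.032 on the log2 scale (SE 0.095), with a 95% interval of -0.18 to 0.24. It was 0.014 without distal 3 and changed sign to -0.022 without proximal 3.

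WEE1 (chromosome 11, 9573670 to 9589985), the kinase that holds CDK1 inactive, had 39.3, 40.0 and 44.4 CPM in distal 1 to 3 and 35.1, 35.9 and 33.6 CPM in proximal 1 to 3. All 3 distal libraries lay above all 3 proximal ones, with distal 3 the highest. The means were 41.2 ± 2.75 CPM in distal and 34.9 ± 1.18 CPM in proximal tumour (SD, n = 3 each). Its fold of 1.18 had a 95% interval of 1.02 to 1.37, and by edgeR's quasi-likelihood test its adjusted p was 0.9997 (0.0311 before adjustment). Over the alternatives the adjusted p of WEE1 lay between 0.9987 and 1. With 1 library left out, its p by edgeR's quasi-likelihood test before adjustment ran from 0.0397 (without distal 1) to 0.0856 (without distal 3). With both proximal 3 and distal 3 left out, that p was 0.15. The log2 fold change of 0.24 (SE 0.096) was 0.19 without distal 3 and 0.16 with both proximal 3 and distal 3 left out. Distal 3 was the library with the most muscle transcripts, and their part in this value was not tested.

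The partners of these kinases were a list of 31 checkpoint and replication stress genes, all of them tested. Of these, 21 had higher and 10 lower values in distal tumour, the median log2 fold change was 0.025, and 0 were called. ATRIP, the partner that brings ATR to DNA, averaged 19.8 ± 0.242 CPM in distal and 19.4 ± 3.30 CPM in proximal tumour. TOPBP1 and ETAA1, which activate ATR, differed by -0.027 (SE 0.089) and 0.085 (SE 0.097) on the log2 scale. CLSPN (claspin), which carries the signal from ATR to CHK1, differed by 0.022 (SE 0.088). PKMYT1, the membrane-bound relative of WEE1, had 22.7 ± 0.537 CPM in distal and 20.9 ± 2.55 CPM in proximal tumour, a log2 fold change of 0.12 (SE 0.12). CDK1, the common substrate of WEE1 and PKMYT1, averaged 221 ± 8.29 CPM in distal and 207 ± 37.7 CPM in proximal tumour. CDC25A, the opposing phosphatase, averaged 41.1 ± 2.20 CPM in distal and 41.3 ± 0.0646 CPM in proximal tumour. The lowest p in this list belonged to TP53BP1, a break repair adaptor, at -0.12 (SE 0.085), and to CDC7, the origin-firing kinase, at 0.11 (SE 0.077).

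PARP1 (chromosome 1, 226360691 to 226408093) was the most strongly read member. It had 309, 323 and 292 CPM in distal 1 to 3 and 310.1, 330 and 342 CPM in proximal 1 to 3. Distal 3 was the lowest and proximal 3 the highest library, and the groups overlapped. The log2 fold change of PARP1 was -0.085 (SE 0.081, 95% interval -0.27 to 0.096), and -0.048 without distal 3. With each library left out in turn it ran from -0.13 to -0.048.

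Of 29 tested genes that act with PARP1 or repair broken DNA, 14 had higher and 15 lower values in distal tumour (median log2 fold change -0.0073), and 0 were called. PARP2, the closest working relative of PARP1, had 54.1 ± 1.71 CPM in distal and 52.7 ± 1.29 CPM in proximal tumour. HPF1, which directs PARP1 to serine residues, differed by -0.071 (SE 0.14) on the log2 scale, with its lowest value in distal 3. PARG, which removes poly(ADP-ribose), differed by -0.11 (SE 0.11), and XRCC1, the scaffold of single-strand break repair, by -0.065 (SE 0.12). TOP1, the target of topotecan and irinotecan, averaged 170.3 ± 2.57 CPM in distal and 176 ± 6.79 CPM in proximal tumour. POLB (DNA polymerase beta) at 0.21 (SE 0.13) and LIG3 (DNA ligase 3) at -0.13 (SE 0.097) had the lowest p of the list.

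SLFN11 (chromosome 17, 35350305 to 35373621) was low in 1 distal library and steady in the remaining 5. It had 161, 153 and 68.0 CPM in distal 1 to 3 and 151, 140.0 and 161 CPM in proximal 1 to 3. Distal 3 thus differed by -55.4% from the median of the other 5 libraries, whose coefficient of variation was 5.60%. The exact Poisson interval, which covers counting error only, was 64.0 to 72.1 CPM for distal 3. For the next lowest library, proximal 2, it was 135 to 145 CPM. Over the tested genes no pair of libraries agreed within counting error, so such a gap is not particular to SLFN11. With all 6 libraries the log2 fold change of SLFN11 was -0.24 (SE 0.34) with a 95% interval of -1.12 to 0.63. Without distal 3 it was 0.058, in the opposite direction, and with both proximal 3 and distal 3 left out it was 0.10. The coefficient of variation of SLFN11 over the 6 libraries was 25.6%. Among the 1810 tested genes within 1.5-fold of its mean level, the median was 7.55%, and 98.7% had a lower value.

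In the other members distal 3 lay closer to the rest. Relative to the median of the other 5 libraries, distal 3 differed by -9.56% for PARP1, -5.01% for ATR, 6.33% for CHEK1, 3.63% for AURKA, 1.33% for AURKB, -8.34% for CD276 and 23.6% for WEE1. Of 9584 tested genes averaging 10 CPM or more, 56 (0.584%) were in distal 3 at or below 50% of the median of the other libraries, SLFN11 among them, and 29 had a lower ratio than SLFN11. Between 11 and 43 genes met the same rule in each of the other libraries. The muscle markers took 0.213% of the counts of distal 3, and their part in the SLFN11 value was not tested.

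Among the Schlafen relatives, which lie near SLFN11 on chromosome 17, SLFN13 had 24.0, 19.3 and 11.2 CPM in distal 1 to 3 and 23.4, 17.8 and 23.0 CPM in proximal 1 to 3. Its lowest library was also distal 3, which differed by -51.5% from the median of the other 5. SLFN5 did not share this: it had 7.58, 9.60 and 10.01 CPM in distal 1 to 3 and 9.63, 14.0 and 9.84 CPM in proximal 1 to 3. SLFN12 was near the lower limit of reading, with 1.59, 0.783 and 0.122 CPM in distal and 0.619, 0.277 and 0.269 CPM in proximal tumour. Its distal 3 value lay under the 0.183 CPM that 3 counts make in that library. Whether SLFN12 shared the low value of distal 3 therefore cannot be told. SLFN12L and SLFN14 had at most 0.0449 CPM in any library. Schlafen genes are close paralogs, so reads could be shared between them.

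**Figure D2:**
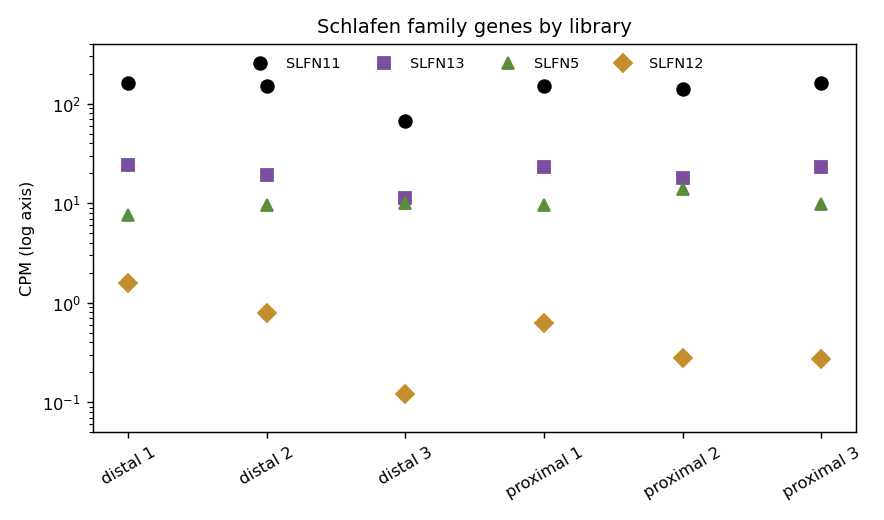
CPM of SLFN11, SLFN13, SLFN5 and SLFN12 in each library, on a log axis, with the distal libraries on the left. In distal 3, SLFN11 had 68.0 and SLFN13 11.2 CPM, their lowest values, while SLFN5 had 10.01 CPM, inside its range elsewhere.

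Genes linked to SLFN11 silencing did not pass the test. The list held Schlafen relatives, silencing factors and also the transcription factors ETS1 and FLI1, and 11 of its genes were tested. Of these, 6 were higher and 5 lower in distal tumour (median log2 fold change 0.036), and 0 were called. EZH2, the methyltransferase of Polycomb complex 2, had 134, 125 and 134 CPM in distal 1 to 3 and 117, 115 and 129 CPM in proximal 1 to 3, a log2 fold change of 0.12 (SE 0.081). Whether EZH2 has a part in the SLFN11 value was not tested. SUZ12, another subunit of that complex, at -0.11 (SE 0.074, all distal below all proximal values), and SLFN5, at -0.30 (SE 0.20), had the lowest p of the list.

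AURKA (chromosome 20, 56369390 to 56392215) had 65.7, 62.7 and 65.4 CPM in distal 1 to 3 and 63.1, 69.7 and 56.5 CPM in proximal 1 to 3. The distal libraries lay inside the proximal range. The log2 fold change was 0.034 (SE 0.10) with a 95% interval of -0.19 to 0.26. It was 0.025 without distal 3, and -0.040 without proximal 3.

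AURKB (chromosome 17, 8204731 to 8210575) had 41.1, 39.6 and 40.9 CPM in distal 1 to 3 and 33.0, 41.8 and 40.4 CPM in proximal 1 to 3. Proximal 1 was the low library, and the other 5 lay within 39.6 to 41.8 CPM. The log2 fold change of AURKB was 0.078 (SE 0.11, 95% interval -0.17 to 0.32), 0.073 without distal 3 and -0.025 without proximal 1.

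Of 23 tested Aurora partners and spindle checkpoint genes, 5 had higher and 18 lower values in distal tumour, the median log2 fold change was -0.046, and 0 were called. TPX2, which activates AURKA on spindle microtubules, averaged 139 ± 6.19 CPM in distal and 147 ± 9.27 CPM in proximal tumour. BORA, the cofactor with which AURKA activates PLK1, differed by -0.055 (SE 0.14) on the log2 scale, and PLK1 itself by -0.028 (SE 0.098). Of the passenger complex partners of AURKB, the means were, for INCENP, 88.1 ± 2.03 and 93.2 ± 7.19 CPM, for BIRC5 (survivin) 81.1 ± 4.11 and 84.5 ± 3.32 CPM, and for CDCA8 (borealin) 65.9 ± 4.78 and 66.9 ± 2.56 CPM in distal and proximal tumour. CEP192, which recruits AURKA to centrosomes, at -0.20 (SE 0.12, lowest in distal 3) and AURKC, the third Aurora kinase, at -0.39 (SE 0.32) had the lowest p. The levels of AURKC were low, at 1.47 ± 0.199 CPM in distal and 1.93 ± 0.198 CPM in proximal tumour, without overlap.

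Proliferation genes, with which Aurora kinases and CHEK1 usually rise and fall in the cell cycle, did not pass the test either. Of 21 tested, 14 had higher and 7 lower values in distal tumour (median log2 fold change 0.038), and 0 were called. MKI67 had 551, 556 and 492 CPM in distal 1 to 3 and 496, 637 and 605 CPM in proximal 1 to 3. E2F2 at 0.18 (SE 0.10) and E2F1 at 0.12 (SE 0.096), activators of S-phase genes, had the lowest p. Both were among the 3 genes of the 21 with all distal above all proximal values. Among all 13382 tested genes, 841 (6.28%) had no overlap in either direction. The mean log2 deviation of the list from its average over libraries was 0.102, 0.0037 and -0.057 in distal 1 to 3 and -0.075, 0.118 and -0.092 in proximal 1 to 3. CHEK1 and AURKA were likewise highest in proximal 2 and lowest in proximal 3. AURKB was also highest in proximal 2 but lowest in proximal 1, at 33.0 CPM, and MKI67 was lowest in distal 3.

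Over the 6 libraries CHEK1 and AURKA had the highest Pearson r of the 36 member pairs, at 0.972 (Spearman rho 0.943, n = 6, log2 CPM). AURKA and AURKB had 0.205 (rho 0.771), where the low value of AURKB in proximal 1 was not shared by AURKA. SLFN11 had -0.739 with WEE1 (rho -0.371) and 0.709 with PARP1 (rho 0.257), with distal 3 the extreme value of SLFN11 in both. All pairs share the library and its scaling, and so few libraries give high r values often. The gene most alike to each member among 10733 candidates was ZBTB10 for SLFN11 (r 0.998), PI4KB for PARP1 (0.997), VAPA for ATR (0.989), FAM210B for CHEK1 (0.989), AOPEP for WEE1 (0.985), MIA2 for AURKA (0.989), UNC13A for AURKB (0.969) and TMEM170B for CD276 (0.997). For SLFN11, 435 candidates had an r above 0.9, and for AURKB 28. ZBTB10, a zinc finger factor, had 424, 401 and 246 CPM in distal 1 to 3 and 405, 397 and 424 CPM in proximal 1 to 3, with its lowest value in distal 3.

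CD276 (chromosome 15, 73683944 to 73714514) was the surface antigen that was read. It had 92.3, 87.1 and 77.2 CPM in distal 1 to 3 and 84.3, 67.3 and 83.7 CPM in proximal 1 to 3. Proximal 2 was the lowest library and distal 1 the highest, and the groups overlapped. The means were 85.5 ± 7.63 CPM in distal and 78.4 ± 9.61 CPM in proximal tumour (SD, n = 3 each). On the log2 scale CD276 differed by 0.13 (SE 0.11, 95% interval -0.13 to 0.38). It was 0.19 without distal 3, 0.24 with both proximal 3 and distal 3 left out, and 0.026 without proximal 2.

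SEZ6 (chromosome 17, 28954905 to 29006440) was at the limit of detection in every library. Its counts were 0, 2 and 1 in distal 1 to 3 and 0, 3 and 3 in proximal 1 to 3, that is 3 reads in distal and 6 reads in proximal tumour of 133285533 counts in all. A count of 0 allows a level of up to 0.132 CPM in distal 1 and 0.116 CPM in proximal 1 (3 counts of the library, counting error only). SEZ6 did not pass the low-count filter, and no fold is given because all libraries were at or under that limit. A two-sided exact permutation test of its log2(CPM + 0.1) values had p = 0.6, where 0.1 is the smallest p that 3 against 3 libraries allow. Its relatives were read: SEZ6L2 had 36.6, 36.6 and 32.9 CPM in distal 1 to 3 and 33.8, 41.6 and 43.7 CPM in proximal 1 to 3. SEZ6L had 9.38, 8.82 and 6.29 CPM in distal and 7.66, 19.8 and 7.05 CPM in proximal tumour, with proximal 2 the high library.

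Among 15 tested genes of other antibody or cell therapy antigens, 6 had higher and 9 lower values in distal tumour (median log2 fold change -0.079), and 0 were called. DLL3, the target of tarlatamab, had 9.65, 8.82 and 11.9 CPM in distal 1 to 3 and 8.47, 12.9 and 6.33 CPM in proximal 1 to 3. NCAM1 (CD56) had 0.352, 0.536 and 3.91 CPM in distal and 0.774, 0.739 and 0.988 CPM in proximal tumour, so its highest value came from the library richest in muscle transcripts, whose part in it was not tested. SEZ6L2 at -0.17 (SE 0.12) and GPC3, a surface proteoglycan, at -0.12 (SE 0.10) had the lowest p. A list of B7 family ligands, with the butyrophilins BTN3A1 and BTN2A2, held 5 tested genes, and 0 were called. All 5 had lower values in distal tumour (median -0.20), while CD276, a B7 family member outside this list, had a higher one. ICOSLG, NCR3LG1 and BTN2A2 were lowest in distal 3, and VSIR and BTN3A1 in other libraries. The lowest p were those of VSIR at -0.63 (SE 0.46), from means of 0.615 and 0.941 CPM in distal and proximal tumour, and NCR3LG1 at -0.20 (SE 0.18). NCR3LG1 had 28.1, 35.7 and 20.3 CPM in distal 1 to 3 and 32.2, 29.7 and 35.3 CPM in proximal 1 to 3, lowest in distal 3. CD274 (PD-L1) had at most 0.366 CPM in any library.

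The interval of each difference shows its size relative to the spread between libraries. That spread could be technical, so the interval need not bound the difference between tumours. For PARP1, ATR, CHEK1, AURKA, AURKB and CD276 the 95% interval reached no further than 1.20-fold, 1.20-fold, 1.19-fold, 1.19-fold, 1.25-fold and 1.30-fold in either direction. For WEE1 it reached 1.37-fold, and for SLFN11 2.17-fold.

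**Figure D3:**
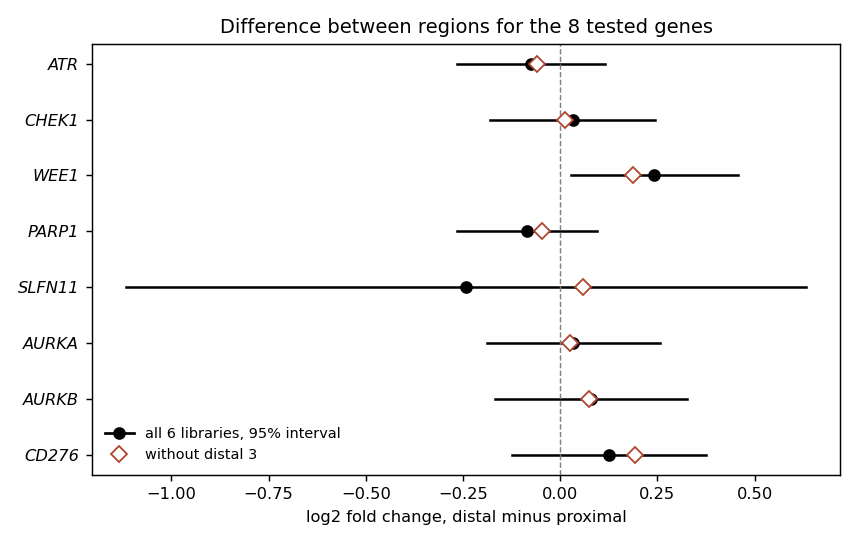
Log2 fold change, distal minus proximal, of the 8 tested members with all 6 libraries (black, with the 95% interval) and without distal 3 (open diamonds). The intervals span 0 for every member but WEE1, whose interval starts at 0.027, and the value of SLFN11 crosses 0 when distal 3 is left out.

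Levels of different members can be compared per length. Per kilobase of the longest coding sequence, PARP1 was highest at 104.5 ± 5.73 CPM per kilobase (SD over the 6 libraries), above the other members without overlap. AURKA (52.8 ± 3.62), SLFN11 (51.4 ± 13.2), CD276 (51.2 ± 5.42), CHEK1 (42.0 ± 2.46) and AURKB (38.2 ± 3.13 CPM per kilobase) followed, and each overlapped its neighbour. WEE1 at 19.6 ± 2.05 and ATR at 11.3 ± 0.625 CPM per kilobase lay below these without overlap, and SEZ6 had 0.0233 ± 0.0206 CPM per kilobase. Per kilobase of all annotated exons, PARP1 remained highest (44.3 ± 2.43) and SEZ6 lowest (0.0136 ± 0.0120), but SLFN11 was second (23.2 ± 5.95), and WEE1 (4.12 ± 0.430) lay below ATR (7.17 ± 0.397 CPM per kilobase). The order of the middle members therefore depends on the length used. It also depends on distal 3: per kilobase of coding sequence the median over libraries of SLFN11, 56.2, was above that of AURKA, 53.1 CPM per kilobase, although its mean was below.

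**Figure D4:**
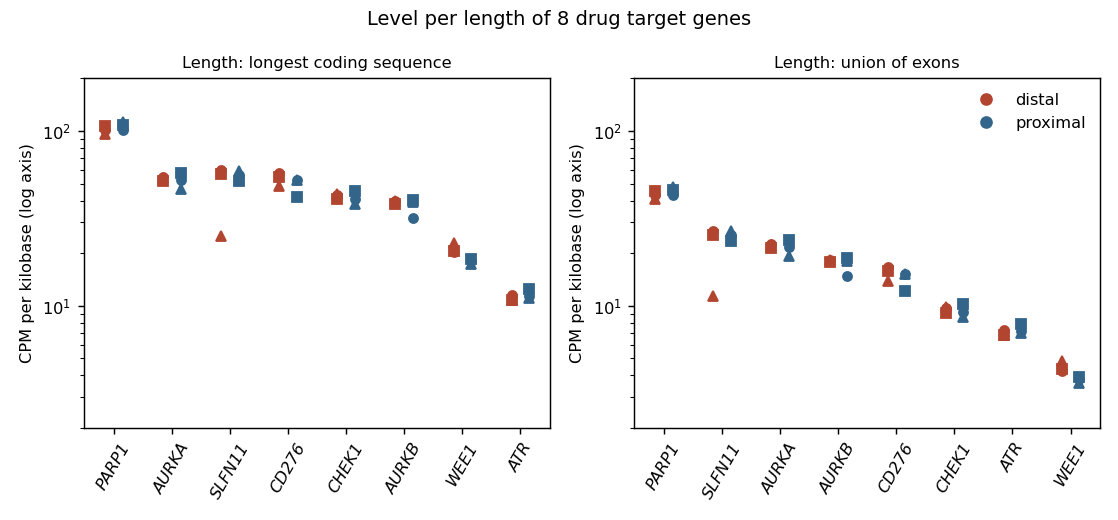
CPM per kilobase of 8 members in each library on a log axis, with distal (red) left of proximal (blue) for each gene, marker shapes for replicates 1 (circle), 2 (square) and 3 (triangle), and the length taken as the longest coding sequence (left panel) or the union of exons (right panel). PARP1 is highest in both panels, and ATR and WEE1 are lowest, in opposite order.

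Other proposed drug targets in this cancer, a list of 26 genes of which 25 were tested, had 12 higher and 13 lower values in distal tumour (median log2 fold change -0.0074), and 0 were called. KDM1A (LSD1, a histone demethylase) averaged 291 ± 9.46 CPM in distal and 289 ± 25.5 CPM in proximal tumour. BCL2, the target of venetoclax, was read at 2.18 ± 0.713 and 1.63 ± 0.593 CPM in distal and proximal tumour. CDK6, a G1 kinase, had 2.47, 2.68 and 2.75 CPM in distal 1 to 3 and 2.21, 1.02 and 1.30 CPM in proximal 1 to 3, without overlap, a log2 fold change of 0.79 (SE 0.36). By edgeR's quasi-likelihood test the adjusted p of CDK6 was 0.9997 (0.0497 before adjustment). IGF1R, a growth factor receptor, was at 0.36 (SE 0.22), with its highest value, 36.8 CPM, in distal 3, where the part of muscle transcripts was not tested. EZH2, TOP1, TOP2A and PLK1 stand in several of these lists.

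**Figure D5:**
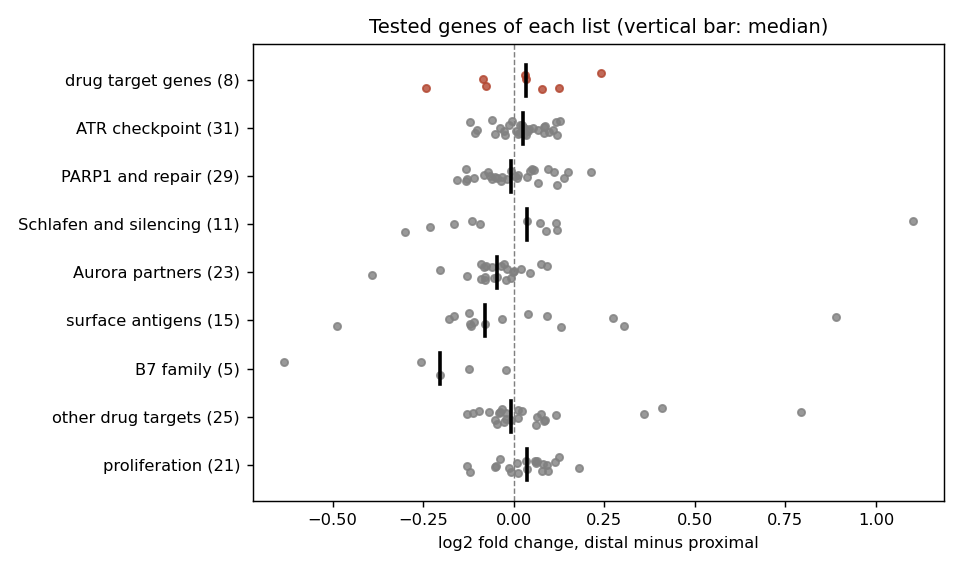
Log2 fold change, distal minus proximal, of each tested gene in the member set (red) and the 8 related lists (grey), with the number of tested genes beside each name and a black bar at the median. The medians lie between -0.20 for the B7 family list, which includes butyrophilins, and 0.038 for proliferation genes, and that of the members is 0.033.

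Markers of other cell types were summed in each library beside these results. Schwann cell and myelin markers summed to 164, 209 and 165 CPM in distal 1 to 3 and to 155, 155 and 244 CPM in proximal 1 to 3. Fibroblast markers summed to 5606, 5517 and 4538 CPM in distal and to 6134, 5871 and 5423 CPM in proximal tumour, mostly COL3A1, DCN and LUM. COL3A1 averaged 4572 CPM over all libraries, while PDGFRA and PDGFRB of the same list averaged 0.710 and 12.3 CPM. The fibroblast sum hides the collagen genes COL1A1 and COL1A2, which were highest in the third library of each group. COL1A1 had 16.04, 18.9 and 38.3 CPM in distal 1 to 3 and 7.70, 18.6 and 62.2 CPM in proximal 1 to 3. COL1A2 had 25.0 CPM in distal 3 and 40.2 CPM in proximal 3, while the remaining 4 libraries lay between 3.79 and 10.9 CPM. Leukocyte markers summed to at most 5.92 CPM, endothelial markers to at most 1.34 CPM and adipocyte markers to at most 2.50 CPM in any library, with PTPRC at most 0.629 CPM and PECAM1 at 0 in 5 of the libraries. Whether these marker transcripts came from the tumour cells or from other cells was not tested, nor was the part of other cells in the members' values.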

How the data were processed

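The deposited table holds unnormalized counts for 17081 gene symbols in 6 libraries, made by the authors. The submitters' processing notes name the build GRCh38 and, in no stated order, featureCounts 2.0.1, STAR 2.7.3a, Trimmomatic 0.39, DESeq2 and bcl2fastq. No annotation, strand setting or handling of host reads is stated in those sources, so reads of the host, of paralogs or of overlapping genes could enter a count. Per the labels' protocols, RNA with an integrity number above 7 went into TruSeq libraries.

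From the counts, edgeR 4.0.16 (R 4.3.3) was run on the whole table: its expression filter, TMM scaling and the robust quasi-likelihood test, group only, with Benjamini-Hochberg adjustment at 0.05 over 13382 tested genes. CPM use TMM-scaled library sizes. The SE is the absolute log2 fold change over the square root of F. Profiles used log2(CPM + 0.1). DESeq2 1.42.0, limma 3.58.1 (voom), other scalings and filters, a replicate block and left-out libraries were the alternatives, and the procedure was tested on simulated counts. Coding and exon lengths came from GENCODE 29 (GRCh38), positions and start windows from RefSeq (GRCh38.p14). Protein sequences were not used here, so lengths planned from them were taken from GENCODE, and the union of exons was added after seeing the data. Named genes were the 9 members, fixed partners, the 2 lowest p of each list and the gene most alike to each member with at least 5 CPM. The members and lists were chosen with earlier results of these data known. Figures were drawn with matplotlib. Some marker and antigen genes are not reported here.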

Additional observations from a re-analysis of the deposited data

How the results depend on the processing

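Of the alternatives, DESeq2 called 1 gene of the whole table and the rest called 0, except that leaving out each library in turn gave 0 to 1, the 1 being without distal 1. EDIL3 was the gene in both. No alternative called a member. Of 112 alternative log2 fold changes of members, 105 kept their direction and 7 reversed. With one library left out, SLFN11 ran from -0.45 to 0.058 (positive without distal 3), AURKB from -0.025 to 0.14 (negative without proximal 1), CHEK1 from -0.022 to 0.097 and AURKA from -0.040 to 0.11 (both negative without proximal 3). With proximal 3 and distal 3 both left out, SLFN11 was at 0.10, CHEK1 at -0.041 and AURKA at -0.049. In each of these left-out fits the gene's lowest library was removed: distal 3 for SLFN11, proximal 1 for AURKB, and proximal 3 for CHEK1 (56.6 CPM) and AURKA (56.5 CPM). Why those libraries were low was not tested. Levels per kilobase moved for 8 members with the union of exons, by construction. With the replicate block 0 genes were called. The deviations of same-numbered libraries correlated at 0.359, -0.113 and 0.182. Distal 1 and distal 3 each went best with the proximal library of the same number, while distal 2 went best with proximal 1 (0.129). Distal 1 and proximal 1 also had the lowest chi-square statistic per degree of freedom of all library pairs, 5.78. Muscle marker sums rose from replicate 1 to replicate 3 in both groups. Whether the numbers mark pairs is not labelled and was not settled here, so the main fit held the group alone. Depth limits SEZ6, where a count of 0 allows up to 0.132 CPM in distal 1. The interval of SLFN11 reached 2.17-fold.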
